A study of Mus musculus with 16 samples.

Results

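The immediate early genes are the genes that cells transcribe first after an injury or a growth signal, and the 10 members examined here were chosen by gene symbol: Fos, Fosb, Jun, Junb, Egr1, Ier2, Ier3, Atf3, Myc and Klf6. Each member was represented by 1 probe, and all 10 were among the 24357 genes that passed the filter on dim probes and were tested. Liver RNA was hybridised to 16 1-colour microarrays from male BALB/c mice aged 6 to 8 weeks when treatment began: 5 WT CCl4 and 4 WT control arrays, and 4 Lcn2-/- CCl4 and 3 Lcn2-/- control arrays. CCl4, a solvent that injures hepatocytes and brings about fibrosis when given repeatedly, was injected into the peritoneum at 0.5 ml/kg, diluted in corn oil, on 2 days of each week for 4 weeks, control mice received corn oil, and livers were taken 48 hours after the last CCl4 dose. Lcn2-/- mice lack lipocalin 2, a secreted carrier of iron-binding siderophores, in every tissue, and per the methods the knockout allele came from another strain background and was backcrossed to BALB/c. The labels number the arrays as replicates without naming animals, so that p-values measure the spread between these arrays.

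Resting cells usually hold little messenger RNA of such genes, but in the control livers here the members' mean log2 signals ran from 6.42 (Junb, Lcn2-/-) to 12.11 (Klf6, WT). Growth factors, cytokines and stress act through MAP kinases and ready-made factors such as SRF, ELK1 and CREB to start their transcription within minutes, and the RNAs decay almost as fast. Fos and Jun proteins pair as AP-1, Atf3 pairs with Jun proteins or with itself, Egr1 and Klf6 are zinc finger factors, and Myc pairs with Max; in liver the group is known for its surge after partial hepatectomy and acute toxin injury.

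With all 16 arrays Atf3, the stress-induced bZIP factor, was the 1 member that passed the test for CCl4, and it rose in both genotypes. The rise was 5.54-fold in WT and 6.43-fold in Lcn2-/- liver. Neither rise passed once slide was a term in the fit. The rise in Lcn2-/- liver also failed to pass when Lcn2-/- control 1 or Lcn2-/- control 2 was left out. The classical AP-1 genes Fos, Fosb, Jun and Junb, the zinc finger genes Egr1 and Klf6, Myc, and Ier2 and Ier3 did not pass the test in either genotype with all 16 arrays. Fos and Ier3 did pass in WT when WT control 3 was left out. Between the genotypes, Myc had the largest difference of the members, at 2.82-fold higher in Lcn2-/- liver under CCl4 and 3.88-fold higher in controls, and neither difference passed the test across all genes. The test was limma's moderated test with Benjamini-Hochberg adjustment over 24357 genes at an adjusted p under 0.05. In WT liver 1 of 10 members was called, where 16.8% of all genes tested were called (8.01% higher and 8.8% lower). The count was also 1 of 10 in Lcn2-/- liver, where 12.2% of all genes were called (6.57% higher and 5.61% lower). None of the 10 was called for Lcn2-/- against WT under CCl4 (0.636% of all genes), in controls (0.53%), or for the difference between the genotypes' responses (0.0534%). Unadjusted limma p-values under 0.05 were found for 2 members in WT (Fos and Atf3, beside 7477 of all 24357 genes) and 2 in Lcn2-/- liver (Ier3 and Atf3, beside 6579). Between genotypes they were found for Myc, under CCl4 (beside 3335 genes) and in controls (beside 2021), and for no member in the interaction (beside 811).

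The promoters of 4 members are printed because the results on CCl4 turn on the first 3 and Fosb shows a member with a difference near 0: Atf3 rose in both genotypes, Fos and Ier3 were called in WT once 1 control array was left out, and Fosb differed from controls by 0.01 and -0.02 on the log2 scale. Each run is the 250 bases before the start of the gene in RefSeq (GRCm38.p6), 5′ to 3′ on the gene's strand. Capitals mark matches, on either strand, to TGACG (the core that ATF and CREB factors read), GGGCGG (the GC box read by Sp1 and, in part, by Egr1 and Klf6), CCAAT and TATAAA.
Atf3, chr1:191183334-191183583, reverse strand: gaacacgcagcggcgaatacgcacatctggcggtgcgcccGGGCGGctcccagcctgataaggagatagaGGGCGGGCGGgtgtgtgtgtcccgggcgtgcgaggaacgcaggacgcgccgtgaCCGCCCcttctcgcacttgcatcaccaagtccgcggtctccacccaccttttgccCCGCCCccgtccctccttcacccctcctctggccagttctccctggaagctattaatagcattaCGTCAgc
Fos, chr12:85473640-85473889, forward strand: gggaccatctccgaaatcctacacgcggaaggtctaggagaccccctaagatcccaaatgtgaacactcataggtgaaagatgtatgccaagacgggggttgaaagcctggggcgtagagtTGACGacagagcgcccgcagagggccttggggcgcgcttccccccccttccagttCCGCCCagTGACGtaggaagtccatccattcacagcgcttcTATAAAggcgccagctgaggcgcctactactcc
Ier3, chr17:35821463-35821712, forward strand: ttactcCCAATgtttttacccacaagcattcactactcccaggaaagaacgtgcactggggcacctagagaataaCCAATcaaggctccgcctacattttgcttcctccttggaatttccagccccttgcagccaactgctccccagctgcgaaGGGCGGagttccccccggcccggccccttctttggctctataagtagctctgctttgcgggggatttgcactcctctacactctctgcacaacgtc
Fosb, chr7:19310046-19310295, reverse strand: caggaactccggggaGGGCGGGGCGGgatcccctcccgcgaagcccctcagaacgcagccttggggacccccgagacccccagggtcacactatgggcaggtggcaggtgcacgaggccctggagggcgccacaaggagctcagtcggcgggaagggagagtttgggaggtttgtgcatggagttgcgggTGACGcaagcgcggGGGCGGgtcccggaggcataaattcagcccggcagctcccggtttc
Promoter sequences were at hand here for 7 of the 10 members, and not for Egr1, Ier2 and Myc. Within 250 bases before and 50 after the start, TGACG was found on either strand in 4 of the 7 (Fos, Fosb, Junb and Atf3) and in 20.8% of all 32851 promoters of the same length. The Fos promoter held TGACG at 129 and 66 bases before the start and TATAAA at 33 bases before it, and the Atf3 promoter held TGACG on the opposite strand 7 bases before the start. GGGCGG was found in 6 of the 7 members (35.7% of all promoters), CCAAT in 5 (37.4%) and TATAAA in 2 (13.6%), and Atf3 held 5 GC boxes, 2 of them overlapping. The full cyclic AMP element TGACGTCA, which contains TGACG, was found in 1.79% of all promoters, the AP-1 site TGACTCA in 5.2% and the CArG box bound by SRF in 1.63%, and none of the 3 was found in a member's window. These are matches of letters and not measurements of binding. The array probes that gave the values lie, in the mm9 coordinates of the scanner files, at chr1:192994547-192994606 for Atf3 and chr7:19888168-19888227 for Fosb on the reverse strand, and at chr12:86817900-86817959 for Fos, chr17:35959528-35959587 for Ier3 and chr15:61821417-61821476 for Myc on the forward strand.

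**Figure D1:**
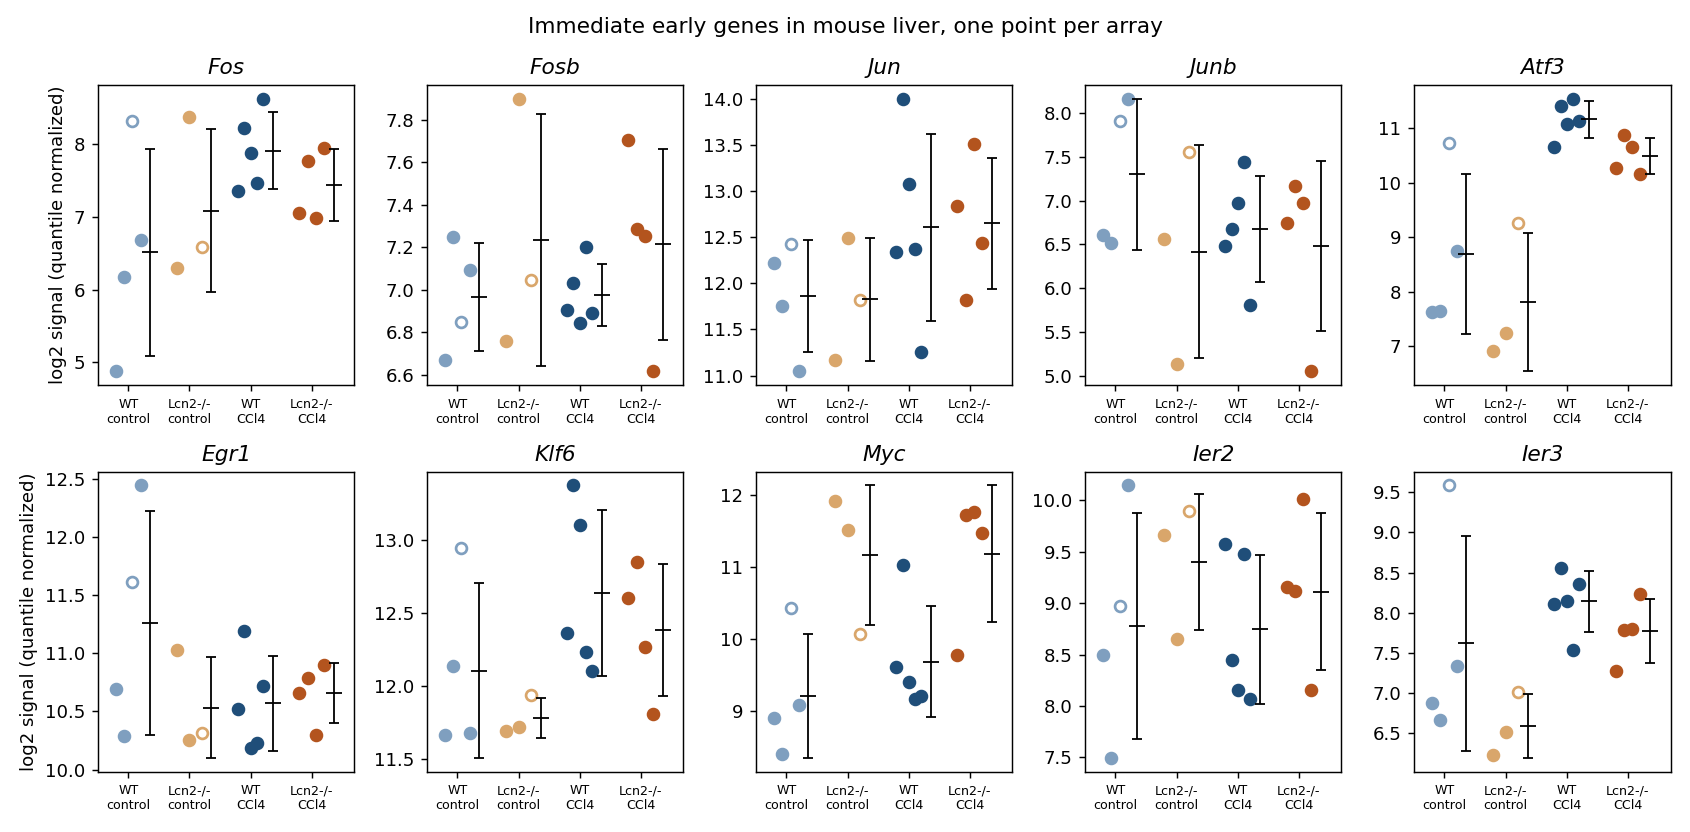
Quantile normalised log2 signal of the 10 immediate early genes, 1 point per array, in the 4 groups of livers, with both control groups to the left of both CCl4 groups. Open points are the control arrays with replicate number 3, and bars are the mean ± SD. Atf3 in both CCl4 groups sits at 10.15 to 11.54, WT control 3 at 10.73, and the other control arrays between 6.91 and 9.25. Each panel has its own scale.

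Atf3 is switched on by many stresses and mostly represses transcription as a homodimer. Its log2 signals in WT control arrays 1 to 4 were 7.63, 7.65, 10.73 and 8.75, and in the 5 WT CCl4 arrays 10.66, 11.40, 11.07, 11.54 and 11.12. The 3 Lcn2-/- control arrays were at 6.91, 7.25 and 9.25, and the 4 Lcn2-/- CCl4 arrays at 10.27, 10.88, 10.65 and 10.15. In Lcn2-/- liver every CCl4 array was above every control array, whereas in WT the control array numbered 3 stood inside the CCl4 range and 4 of 5 CCl4 arrays were above it. The mean of the WT arrays went from 8.69 ± 1.46 (SD, n = 4) without to 11.16 ± 0.34 (n = 5) with CCl4, and that of the Lcn2-/- arrays from 7.80 ± 1.27 (n = 3) to 10.49 ± 0.34 (n = 4). The log2 difference, CCl4 minus control, was 2.47 (SE 0.58, limma adjusted p = 0.00943) in WT and 2.68 (SE 0.66, limma adjusted p = 0.0158) in Lcn2-/- liver, at the percentiles 99.1 and 99.3 of all genes tested. By the exact permutation test, two-sided, Atf3 gave p = 0.0159 in WT, where 126 splits of the arrays allow no less than 0.00794, and p = 0.0286 in Lcn2-/- liver, the smallest that 35 splits allow. The SD among controls was larger than among CCl4 arrays in both genotypes.

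The control arrays numbered 3 touched several members. In WT control 3, Atf3 was 2.73 above the mean of the other 3 WT controls on the log2 scale, Ier3 2.63, Fos 2.40, Myc 1.62 and Klf6 1.12 above it, and it was the highest WT control for 6 of the 10 members. In Lcn2-/- control 3, Atf3 was 2.18 and Junb 1.71 above the mean of the other 2, while Myc was lower by 1.63, at 10.08 against 11.71. The mean log2 signal of 7 macrophage and Kupffer cell markers was 14.5 in WT control 3 against 12.2 to 13.1 in the other WT controls, and 14.4 in Lcn2-/- control 3 against 12.4 and 12.5. That of 8 neutrophil markers was 10.6 against 8.64 to 9.32 in WT controls and 11.7 against 8.32 and 8.57 in Lcn2-/- controls. Lymphocyte markers, 6 measured, were at 10.2 against 8.84 to 9.30 and at 9.87 against 8.41 and 8.55. Monocyte-derived macrophage markers were at 10.9 against 8.95 to 9.84 in WT controls and at 8.26 against 7.78 and 8.25 in Lcn2-/- controls. The mean of 7 hepatocyte markers, from albumin to the factor Hnf4a, stayed between 18.0 and 18.3 in all 4 groups. Alb and Serpina1a among them had group means of 18.9 to 19.1, high on the scale, where quantile normalisation can mask a change. The part of these cells in the members' levels was not tested, and in whole liver more cells of a type and more RNA per cell cannot be told apart.

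Without WT control 3, the count of members called rose from 1 to 3 in WT and from 1 to 2 in Lcn2-/- liver, while the count over all genes tested rose from 4094 to 5110 and from 2968 to 3200. Atf3, Fos and Ier3 were then called in WT, with log2 differences of 3.15 (limma adjusted p = 0.000270), 1.99 (limma adjusted p = 0.0124) and 1.18 (limma adjusted p = 0.00665), and Atf3 and Ier3 were called in Lcn2-/- liver (Ier3 1.18, limma adjusted p = 0.0128). Other controls moved the WT values down: Fos was at 0.85 without WT control 1 (limma adjusted p = 0.370) and Ier3 at 0.21 without WT control 2 (limma adjusted p = 0.844). The rise of Atf3 in Lcn2-/- liver lost its call without Lcn2-/- control 1 (2.24, limma adjusted p = 0.0890) or without Lcn2-/- control 2 (2.41, limma adjusted p = 0.0787). All 7 control arrays and WT CCl4 1 were on 1 slide and the other 8 arrays on a second, so that CCl4 and slide are separated by WT CCl4 1 only. Within the first slide, Atf3 in WT CCl4 1 was 10.66, which is 1.97 above the mean of the WT controls and below WT control 3. With slide as a term in the fit the Atf3 differences were 1.97 (limma adjusted p = 0.280) in WT and 2.06 (limma adjusted p = 0.433) in Lcn2-/- liver, and no member was called.

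**Figure D2:**
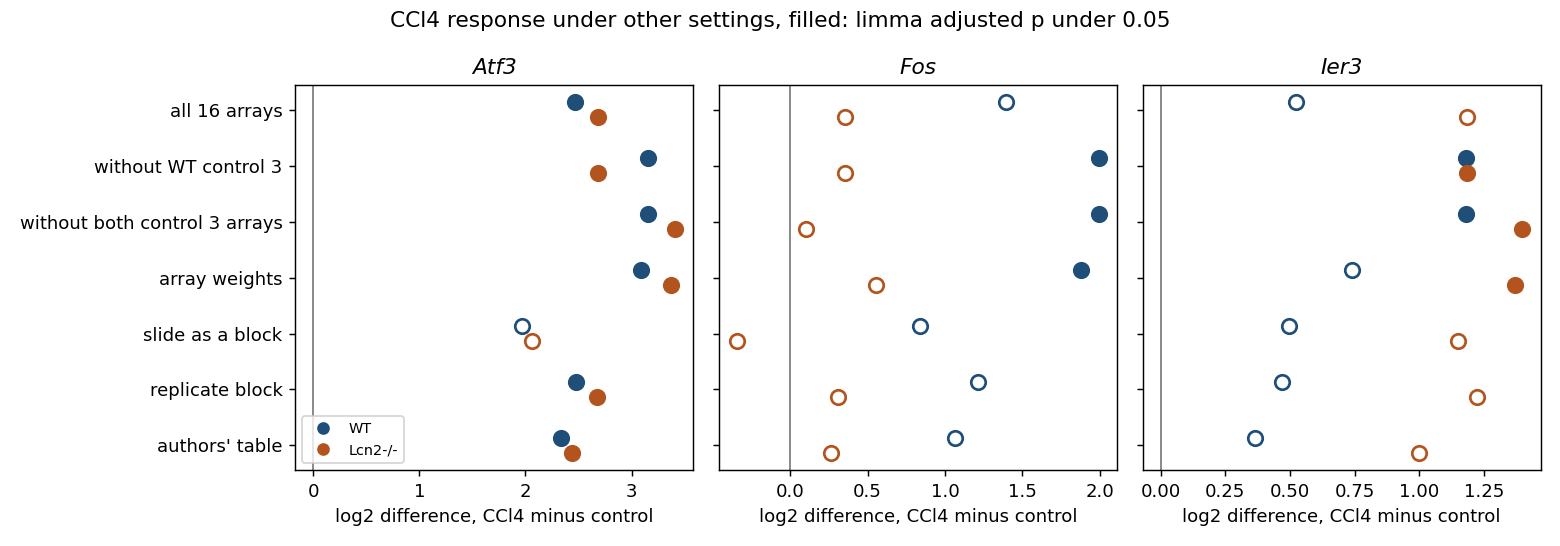
Log2 difference, CCl4 minus control, of Atf3, Fos and Ier3 in WT and Lcn2-/- liver with all 16 arrays and under 6 other settings. Filled points have a limma adjusted p under 0.05. Atf3 lies between 1.97 and 3.41 in the settings drawn and is open with slide in the fit, while Fos and Ier3 in WT are filled without WT control 3.

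Among the AP-1 genes, Fos encodes the partner that gives AP-1 its stability and its RNA is among the shortest-lived. Fos log2 signals were 4.88, 6.18, 8.32 and 6.69 in WT control and 7.35, 8.22, 7.88, 7.47 and 8.62 in WT CCl4, where 1 of 5 CCl4 arrays was above all controls. They were 6.30, 8.36 and 6.59 in Lcn2-/- control and 7.06, 7.77, 6.98 and 7.95 in Lcn2-/- CCl4, inside the range of the controls. WT control 1, the lowest of the 16, was not well above background. The log2 difference was 1.39 (95% interval 0.15 to 2.63, exact permutation p = 0.0794, limma adjusted p = 0.117) in WT. In Lcn2-/- liver it was 0.35 (95% interval -1.06 to 1.76, limma adjusted p = 0.777). The WT difference was 0.78 with normexp background correction and 0.84 with slide as a term in the fit. The responses of the genotypes differed by -1.04 (SE 0.88, limma adjusted p over 24357 genes = 1.00), so the difference was not beyond the spread. The Fos probe was spotted 10 times on each array, with a median SD of 0.13 between its spots on the log2 scale.

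Fosb, whose protein replaces Fos in AP-1 under lasting stimulation, ranged from 6.62 to 7.90 over the 16 arrays. Its log2 difference was 0.01 in WT (95% interval -0.49 to 0.51) and -0.02 in Lcn2-/- liver (95% interval -0.59 to 0.55), the narrowest intervals of the 10 members in both genotypes. Jun, the main partner of Fos and itself needed for hepatocyte division, was at 12.22, 11.76, 12.43 and 11.04 in WT control and 12.34, 14.00, 13.07, 12.37 and 11.25 in WT CCl4. Its signals were 11.16, 12.50 and 11.82 in Lcn2-/- control and 12.83, 11.82, 13.51 and 12.43 in Lcn2-/- CCl4. The groups overlapped in both genotypes, with 2 CCl4 arrays above all controls in each. The differences of Jun were 0.75 (SE 0.50, limma adjusted p = 0.338) in WT and 0.82 (SE 0.57, limma adjusted p = 0.376) in Lcn2-/- liver. Leaving out each array in turn gave 0.40 to 1.08 in WT and 0.49 to 1.16 in Lcn2-/- liver. Junb, an AP-1 subunit that often opposes Jun in growth, was at 6.61, 6.51, 7.91 and 8.17 in WT control and at 6.48, 6.67, 6.97, 7.45 and 5.81 in WT CCl4, a difference of -0.63 (SE 0.55, limma adjusted p = 0.481). Junb in Lcn2-/- liver was well above background on 2 of 3 control and 3 of 4 CCl4 arrays, and the difference was 0.07 (SE 0.63).

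Of the zinc finger genes, Egr1, a factor that drives many injury and growth genes, was at 10.69, 10.29, 11.62 and 12.44 in WT control and 10.52, 11.19, 10.19, 10.23 and 10.72 in WT CCl4. WT controls 3 and 4 were above every CCl4 array, and 2 of 5 CCl4 arrays were below every control. The log2 difference of Egr1 was -0.69 (95% interval -1.47 to 0.09, limma adjusted p = 0.219) in WT and 0.13 (95% interval -0.76 to 1.02, limma adjusted p = 0.877) in Lcn2-/- liver, whose arrays lay between 10.25 and 11.03. Without WT control 4 the WT difference was -0.30 (limma adjusted p = 0.560). Klf6, a Krüppel-like factor present in hepatocytes and activated stellate cells, was at 11.66 to 12.94 in WT control and 12.10 to 13.38 in WT CCl4, and at 11.69, 11.72 and 11.94 in Lcn2-/- control. In Lcn2-/- CCl4 the Klf6 signals were 12.61, 12.85, 12.27 and 11.81, so that 3 of 4 arrays were above all 3 controls. Its differences were 0.53 (SE 0.32, limma adjusted p = 0.280) in WT and 0.60 (SE 0.36, limma adjusted p = 0.304) in Lcn2-/- liver.

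Ier2, a nuclear protein induced with Fos, ranged from 7.49 to 10.15 in WT control and 8.07 to 9.58 in WT CCl4, a difference of -0.03 (95% interval -1.15 to 1.08). With the knockout it was at 8.65 to 9.89 in controls and 8.15 to 10.01 under CCl4, a difference of -0.29 (95% interval -1.56 to 0.98). Ier3, a target of NF-kappaB that bears on survival signalling, was at 6.88, 6.67, 9.59 and 7.34 in WT control and 8.11, 8.56, 8.14, 7.53 and 8.36 in WT CCl4. It was at 6.23, 6.52 and 7.02 in Lcn2-/- control and 7.27, 7.78, 7.79 and 8.24 in Lcn2-/- CCl4. Only WT control 3 kept the WT groups from separating, and in Lcn2-/- liver the groups did not overlap. Atf3 and Ier3 were the 2 of 10 members whose Lcn2-/- groups did not overlap, where 24.8% of all genes tested had no overlap. Ier3 differed by 0.52 (SE 0.47, limma adjusted p = 0.489) in WT and 1.18 (SE 0.53, p = 0.0434, limma adjusted p = 0.170) in Lcn2-/- liver, with an exact permutation p of 0.0286 in the latter, the smallest that design allows.

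**Figure D3:**
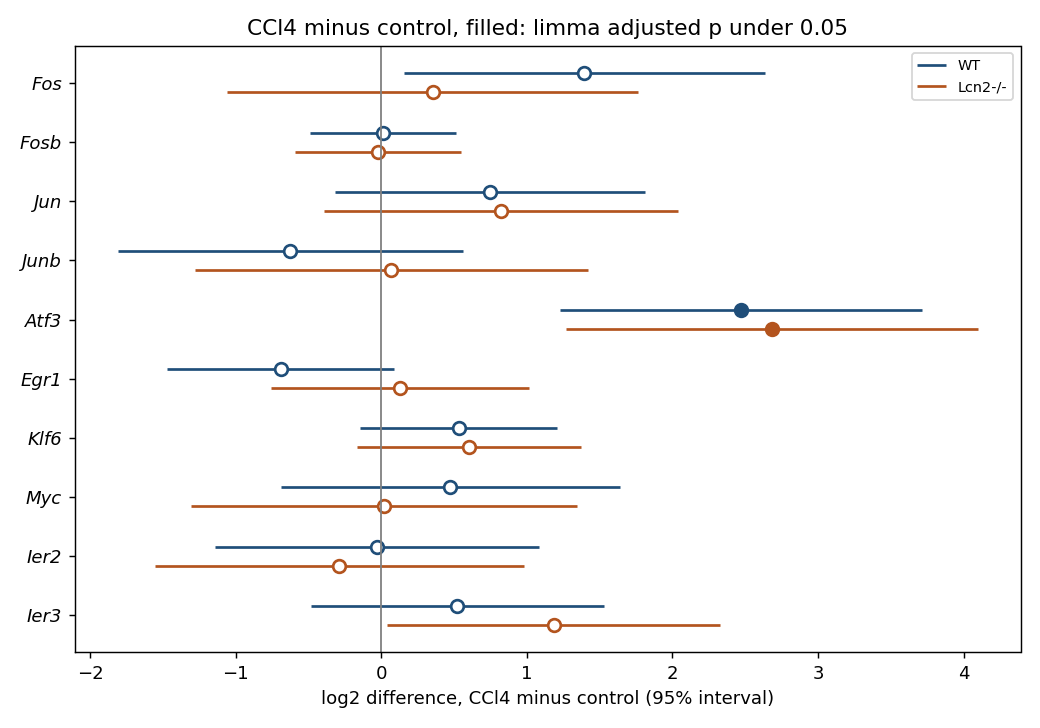
Log2 difference, CCl4 minus control, of each member in WT and Lcn2-/- liver with its 95% interval from limma. Filled points have an adjusted p under 0.05. Atf3 at 2.47 and 2.68 is filled in both genotypes, and the other 9 members are open.

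Over the 10 members, 7 differences were positive in WT and 8 in Lcn2-/- liver, where 46.3% and 47.6% of all genes were positive. The median member difference was 0.50 in WT and 0.24 in Lcn2-/- liver, against -0.03 and -0.02 over all genes tested. By group mean, WT CCl4 ranked highest of the 4 groups for Fos, Ier3, Atf3 and Klf6, Lcn2-/- CCl4 for Jun and Myc, Lcn2-/- control for Fosb and Ier2, and WT control for Junb and Egr1. For all 10 members, each pair of neighbours in the order of the 4 means overlapped in range. In WT, 0 of 10 members had groups without overlap (17.4% of all genes tested), and the counts between genotypes were also 0, under CCl4 (5.66% of all genes) and in controls (9.64%).

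Myc drives ribosome production and growth. Its log2 signals were 8.91, 8.42, 10.43 and 9.10 in WT control and 11.92, 11.51 and 10.08 in Lcn2-/- control. Under CCl4 they were 9.62, 11.03, 9.41, 9.17 and 9.22 in WT and 9.78, 11.73, 11.77 and 11.47 in Lcn2-/- liver. In each treatment 1 array of each genotype crossed into the other's range: WT control 3 and Lcn2-/- control 3 among controls, and WT CCl4 2 and Lcn2-/- CCl4 1 under CCl4. Among controls the mean was 9.21 ± 0.86 (SD, n = 4) for WT and 11.17 ± 0.97 (n = 3) for Lcn2-/-, and among CCl4 arrays 9.69 ± 0.77 (n = 5) and 11.18 ± 0.95 (n = 4). Lcn2-/- minus WT was 1.96 (SE 0.62, p = 0.00685, limma adjusted p = 0.268) in controls and 1.50 (SE 0.54, p = 0.0154, limma adjusted p = 0.259) under CCl4, by exact permutation test p = 0.0857 and p = 0.0556. With array weights, which give less say to arrays that scatter, the control difference was 2.65 (limma adjusted p = 0.00575), and over the other 26 alternatives the adjusted p in controls ran from 0.0648 to 0.723. The control comparison lay on 1 slide, and within the second slide (without WT CCl4 1) the CCl4 difference was 1.48 (limma adjusted p = 0.341). All WT arrays but WT CCl4 1 were in the upper row of a slide and all Lcn2-/- arrays in the lower row, so that row and genotype are separated by that array only. Its Myc signal was 9.62, against a mean of 9.71 on the other 4 WT CCl4 arrays. The Myc probe was spotted 2 times, with a median SD of 0.03 between spots, and the CCl4 difference of Myc was 0.48 (SE 0.54, limma adjusted p = 0.598) in WT and 0.02 (SE 0.62, limma adjusted p = 0.992) in Lcn2-/- liver.

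Lcn2 itself checked the genotype labels: its log2 signal lay between 13.79 and 17.57 on the 9 WT arrays and between 10.47 and 12.25 on the 7 Lcn2-/- arrays, with the highest value on WT control 3.

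For the other members no genotype difference passed the test. Atf3 was lower in Lcn2-/- liver by point estimate, at -0.67 (SE 0.58, limma adjusted p = 0.637) under CCl4 and -0.89 (SE 0.66, limma adjusted p = 0.910) in controls. Leaving out each array in turn gave -1.61 to -0.21 for the Atf3 difference in controls. Among same-numbered controls Atf3, Ier3 and Junb were lower and Fosb and Ier2 higher in Lcn2-/- liver in 3 of 3 pairs. The share of all genes with such agreement was not counted, and so few pairs often agree by chance. With the replicate number as a block limma called none of these 5 members. Under CCl4, 3 of 4 Lcn2-/- arrays were below all 5 WT arrays for Atf3 (exact permutation p = 0.0317 before any adjustment). Ier3 differed by -0.37 (SE 0.47) under CCl4 and -1.03 (SE 0.53, limma adjusted p = 0.687) in controls. In the same order, Egr1 differed by 0.09 (SE 0.36) and -0.73 (SE 0.41), and Fos by -0.47 (SE 0.58) and 0.57 (SE 0.66). With each array left out in turn, the control differences ran from -1.35 to -0.37 for Ier3 and from -1.05 to -0.33 for Egr1. The response of Atf3 differed between genotypes by 0.21 (95% interval -1.67 to 2.09), an interval that reaches past a 3-fold difference either way.

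**Figure D4:**
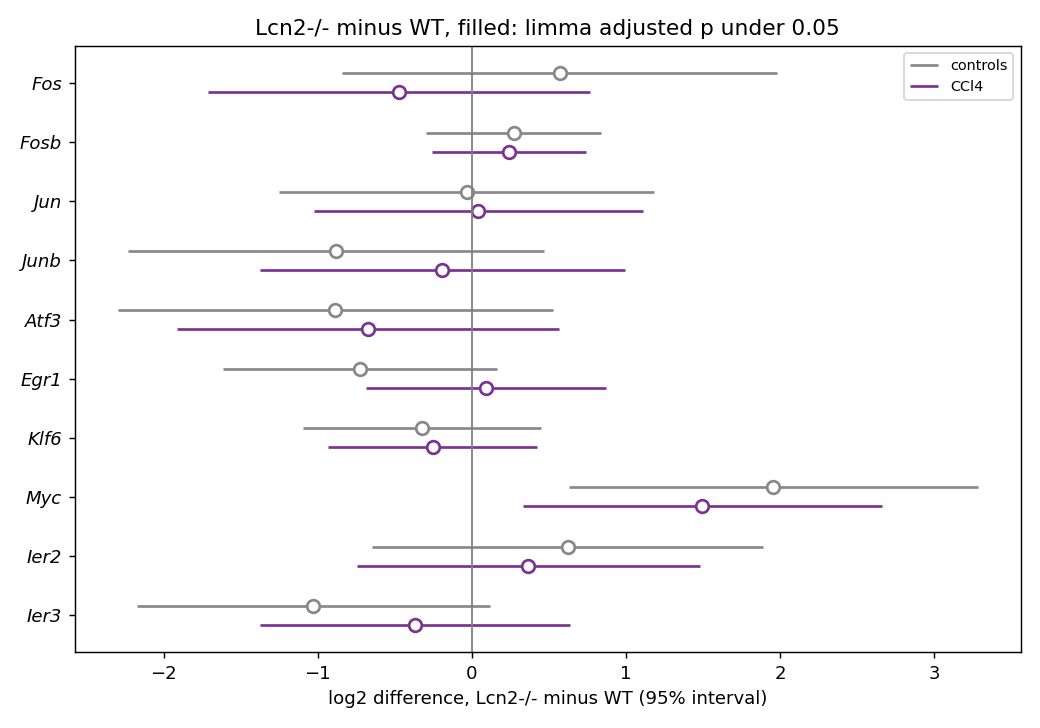
Log2 difference, Lcn2-/- minus WT, of each member in controls and under CCl4 with its 95% interval from limma. All points are open, since no adjusted p was under 0.05. Myc at 1.96 and 1.50 is the 1 member whose intervals lie above 0 in both treatments.

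The members were also compared in pairs. After subtraction of group means, 34 of 45 pairs of members had a positive Pearson r over the 16 arrays, with a median of 0.23. The strongest pair by permutation test was Junb with Ier2 (r = 0.76, permutation p = 0.0028, adjusted over 45 pairs 0.126, Spearman rho 0.74, permutation p = 0.00582, adjusted 0.215). That r was 0.68 without the 2 arrays farthest from the median of Junb, 0.76 within the first slide and 0.78 within the second. Ier3 with Atf3 had r = 0.79 (permutation p = 0.0218, adjusted 0.328, rho 0.62, permutation p = 0.0343, adjusted 0.514), which was 0.48 without the 2 farthest arrays, 0.90 within the first slide and -0.24 within the second. No pair passed after adjustment.

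Over the 16 arrays and without subtraction of group means, the gene most like Atf3 was Egr2 (r = 0.986), followed by Glipr1 (0.982) and Pik3r5 (0.982). The gene most like Ier3 was Stfa2l1 (0.945), a neutrophil cystatin, that most like Fos was Pstpip1 (0.843) and that most like Klf6 was Pik3cg (0.937), the last 2 known from blood leukocytes. For Jun it was Wwc2 (0.923), for Junb Syne1 (0.858), for Ier2 D030018L15Rik (0.946), for Myc Foxq1 (0.884), for Egr1 Prf1 (0.799), and for Fosb an unnamed Ensembl transcript (0.863). The highest median r over the 10 members among genes of other symbols was that of Slc4a11 (0.548), and Capn5, Rarg and Tes were at 0.540, 0.512 and 0.499. These values are descriptions over arrays that share slide and treatment.

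The other AP-1 and bZIP genes were measured for 12 of 13 listed. Of these 2 rose and 0 fell in WT, and 2 rose and 1 fell in Lcn2-/- liver, beside 16.8% and 12.2% of all genes called in either direction, and the median differences were 0.16 and -0.01. The list mean of WT control 3 was 11.9, above the highest WT CCl4 array (11.8), and the other WT controls were at 10.8 to 11.0. Fosl2, the Fos-related subunit linked to fibrosis, rose by 0.94 (SE 0.21, limma adjusted p = 0.00782) in WT and 0.85 (SE 0.24, limma adjusted p = 0.0347) in Lcn2-/- liver. Atf7, a constitutive partner of AP-1, rose by 1.81 (limma adjusted p = 0.00114) and 1.99 (limma adjusted p = 0.00225), and Mafg, a small Maf partner of Nrf2, fell by 0.54 in Lcn2-/- liver (limma adjusted p = 0.0399).

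Other immediate early and early response genes were measured for 41 of 46 listed. In WT 7 rose and 2 fell, and in Lcn2-/- liver 6 rose and 0 fell, beside the same 16.8% and 12.2%, with medians of 0.24 and 0.28 against -0.03 and -0.02 for all genes. WT control 3 had a list mean of 11.1, inside the WT CCl4 range of 10.8 to 11.3, against 10.3 to 10.6 in the other WT controls. Lcn2-/- control 3 was at 10.6, below the Lcn2-/- CCl4 range of 10.8 to 11.0, and the other Lcn2-/- controls were at 10.3 and 10.5. Both of these control arrays had high macrophage, neutrophil and lymphocyte markers. Egr2, the relative of Egr1 that is induced in macrophages, rose by 2.80 (SE 0.71, limma adjusted p = 0.0143) in WT. It was also called in Lcn2-/- liver (limma adjusted p = 0.0125), where 1 of 3 controls was measurable, at 7.24, against a CCl4 mean of 9.04 ± 0.43 (SD, n = 4). Ereg, a ligand of the EGF receptor, was called in WT (limma adjusted p = 0.00672), with a mean of 6.72 ± 0.50 (SD, n = 5) under CCl4, but was measurable on 1 of the 4 WT controls, at 6.13, so that its fold is not given. No Lcn2-/- control was measurable for Ereg, and it was at least 1.69-fold higher with CCl4 (limma adjusted p = 0.0248). Ccn2, a matricellular target of Yap, rose by 1.82 (limma adjusted p = 0.00251) in WT. Dusp8, a MAP kinase phosphatase, was called higher with CCl4 in Lcn2-/- liver (limma adjusted p = 0.0474). It was measurable on 2 of 3 controls, the highest at 6.81, against a CCl4 mean of 8.08 ± 1.04 (SD, n = 4), so that its fold is not given. Pim1, a survival kinase, fell by 1.78 (limma adjusted p = 0.0206) and Trib1, a pseudokinase, by 0.33 (limma adjusted p = 0.0427) in WT.

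The kinases and factors upstream of the members, measured for 25 of 26, had 2 rises and 3 falls in WT (16.8% of all genes called) and 2 rises and 1 fall in Lcn2-/- liver (12.2%), with medians of -0.02 and 0.02. Rps6ka3, the ERK-activated kinase RSK2, rose by 0.57 and 0.67, and Mrtfb, a co-activator of SRF, by 0.55 and 0.57 (all 4 limma adjusted p under 0.01, from 0.00338 to 0.00911). Elk4, an SRF partner, fell by 1.14 (limma adjusted p = 0.000413) in WT and 0.86 (limma adjusted p = 0.00997) in Lcn2-/- liver, and the receptors Met and Egfr fell by 1.15 (limma adjusted p = 0.0200) and 0.88 (limma adjusted p = 0.0338) in WT.

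Genes that AP-1 or Egr1 are known to activate were measured for 18 of 19. In WT 6 rose and in Lcn2-/- liver 4 rose, with 0 falls in either and medians of 0.97 and 0.99, where 8.01% and 6.57% of all genes rose. The list mean of WT control 3 was 10.5, inside the WT CCl4 range of 9.70 to 10.6, and the other WT controls were at 8.16 to 8.79. In Lcn2-/- liver the means were 7.89 to 8.70 in controls and 9.10 to 9.93 under CCl4. Mmp12, the macrophage elastase, was called higher with CCl4 in WT (limma adjusted p = 4.44e-05), where 2 of 4 controls were measurable. The highest WT control was at 7.58, against a CCl4 mean of 11.63 ± 0.69 (SD, n = 5), and the fold is not given. With no measurable Lcn2-/- control, Mmp12 was at least 24.7-fold higher with CCl4 in Lcn2-/- liver (limma adjusted p = 0.000175). Spp1, osteopontin, rose by 1.67 (limma adjusted p = 0.0193) and 2.10 (limma adjusted p = 0.0147), and Mmp13 by 2.01 (limma adjusted p = 0.00256) in Lcn2-/- liver. Mmp3 was called in WT (limma adjusted p = 0.0182), with 1 of 4 controls measurable at 6.21 and a CCl4 mean of 7.17 ± 0.87 (SD, n = 5). Many of these are also macrophage or fibroblast genes. The monocyte-derived macrophage markers rose in 3 of 5 measured in both genotypes, with list means of 8.95 to 10.87 in WT control, 11.99 to 13.06 in WT CCl4, 7.78 to 8.26 in Lcn2-/- control and 11.14 to 12.40 in Lcn2-/- CCl4, and Gpnmb among them was not well above background on any Lcn2-/- control array. Stellate cell and fibroblast markers rose in 6 of 8 in WT and 5 of 8 in Lcn2-/- liver, with list means of 10.85 to 11.95 in WT control, 12.22 to 12.99 in WT CCl4, 10.65 to 10.78 in Lcn2-/- control and 12.16 to 12.47 in Lcn2-/- CCl4. Neutrophil markers rose in 5 of 8 in WT and 1 of 8 in Lcn2-/- liver, while limma called 0 of 8 for the difference between the genotypes' responses (median -0.78). The neutrophil list mean of Lcn2-/- control 3 was 11.7, above every Lcn2-/- CCl4 array (10.4 to 11.0), and the other Lcn2-/- controls were at 8.32 and 8.57. WT control 3 was at 10.6, below the WT CCl4 arrays (10.9 to 11.5). Of 7 macrophage and Kupffer cell markers, 1 rose and 1 fell in WT and 1 rose in Lcn2-/- liver, with median differences of -0.51 and -0.30. Their list means were 12.6 to 13.3 in WT CCl4, against 14.5 in WT control 3 and 12.2 to 13.1 in the other WT controls. In Lcn2-/- liver they were 12.8 to 13.1 under CCl4, against 14.4 in control 3 and 12.4 and 12.5 in the other controls. Of 6 lymphocyte markers, 0 rose and 2 fell in WT (8.8% of all genes fell). In Lcn2-/- liver none was called by limma (5.61% fell), and the medians were -0.60 in WT and -0.32 in Lcn2-/- liver. The lymphocyte list mean was 10.2 in WT control 3 against 8.41 to 9.40 in WT CCl4. It was 9.87 in Lcn2-/- control 3 against 8.55 to 9.01 in Lcn2-/- CCl4. The part of these cells in the rise of Atf3 was not tested.

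Of 11 Myc network genes measured of 12, Mycl rose by 1.02 (limma adjusted p = 0.0148) in WT and Mycn fell by 1.68 (limma adjusted p = 0.00285) in Lcn2-/- liver. Of 15 target genes, Ccnd1, cyclin D1, rose by 1.38 (limma adjusted p = 0.0243) in WT, and Cad, the enzyme that opens pyrimidine synthesis, fell by 2.32 (limma adjusted p = 0.000460) in WT and 1.85 (limma adjusted p = 0.00824) in Lcn2-/- liver. These were the calls in both lists, and over all genes 16.8% were called in WT and 12.2% in Lcn2-/- liver. Between genotypes 0 of 15 Myc targets were called by limma in controls (0.53% of all genes) or under CCl4 (0.636%), with medians of 0.16 and 0.04 against -0.01 and 0.00 over all genes.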

How the data were processed

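Liver RNA was labelled with cyanine 3 and hybridised to Agilent 1-colour arrays with 59305 gene spots each. The deposited scanner files, written per the file headers by Feature Extraction 10.7.3.1, hold intensity values already background-subtracted by that software. The authors' deposited value table holds log2 values whose ranks equal those of median signal minus local background on every array (Spearman 1.0), with column medians of 6.53 to 6.55. Per the methods the authors quantile normalised the arrays in R. The submitters' processing notes name limma. Here the log2 processed signals were quantile normalised over all gene spots, spots marked as outliers were left out, and spots of 1 probe were averaged. A probe was kept if it was well above background on at least 3 arrays, and the brightest probe stood for a gene. On each array 51.6% to 60.9% of spots were well above background. The number of arrays limits the precision.

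One model with the 4 groups was fitted with limma 3.58.1 in R 4.3.3, giving 5 contrasts, with Benjamini-Hochberg adjustment over 24357 genes and a threshold of 0.05. All groups shared 1 estimate of the spread. In simulated arrays of the WT response over 24357 genes, 48% of changes of 1 and 93% of changes of 2 on the log2 scale were recovered. The 200 changed genes were drawn at random with independent noise. Over all genes the median SE of the WT response was 0.20, below that of every member (0.23 for Fosb to 0.58 for Atf3). The shares recovered are therefore not the power for the members. Exact permutation tests were run with scipy for single members. Of the gene spots, 49.8% matched a RefSeq symbol by accession, and others kept the name in the files. Members of the list are always named, and of each other list up to 3 of the largest called rises and falls per comparison. Members and lists were chosen with earlier results of these data known. The deviations of same-numbered WT and Lcn2-/- control arrays correlated at 0.233, 0.368 and 0.552 over genes. Under CCl4 the values were 0.012, 0.252, 0.026 and -0.221. Arrays of different numbers were not compared. Same-numbered controls also lay in the same column of 1 slide, so that number and column cannot be told apart. The alternatives were other scalings, background corrections, filters, the deposited table, slide or replicate number in the fit, array weights, and each array left out.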

Additional observations from a re-analysis of the deposited data

Results flagged for a closer look

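Among 30 sets of 4 or 5 arrays tested for a lone array (10 members in 3 groups), 2 were found, both for Myc, and chance gives about 1 in 20. In WT CCl4 the highest Myc array, replicate 2 at 11.03 on the log2 scale, stood apart from the other 4 by 0.758 of the group's range, above the critical 0.71. In Lcn2-/- CCl4 the lowest Myc array, replicate 1 at 9.78, stood apart by 0.851 of the range, above the critical 0.829. These are the CCl4 arrays at which the Myc ranges of the genotypes cross. Without WT CCl4 2 the difference of Myc, Lcn2-/- minus WT under CCl4, was 1.83 (limma adjusted p = 0.210), and without Lcn2-/- CCl4 1 it was 1.97 (limma adjusted p = 0.182).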

How the results depend on the processing

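The rise of Atf3 kept its direction in all 27 alternatives in each genotype, from 1.97 to 3.15 in WT (adjusted p 1.12e-05 to 0.280, called in 26) and from 2.06 to 3.41 in Lcn2-/- liver (adjusted p 4.59e-05 to 0.433, called in 24). Members called, 1 in each genotype with all arrays, were 0 in both with slide as a fixed block, 2 in WT and 3 in Lcn2-/- liver with array weights, 3 and 2 without both control arrays numbered 3, and 2 in Lcn2-/- liver with only its 2 groups in the fit. Leaving out each array gave 1 to 3 in WT and 0 to 2 in Lcn2-/- liver, and 0 in the comparisons of genotypes and the interaction. Array weights gave 1 call for Lcn2-/- against WT in controls, Myc. They raised the genes called overall to 7054 in WT, 6954 in Lcn2-/- liver, 323 under CCl4 between genotypes and 1270 in controls, and slide as a block lowered the responses to 1302 and 425, with Fos in WT called with weights (1.88, adjusted p = 0.0225) and Ier3 and Jun in Lcn2-/- liver (1.37, adjusted p = 0.0200, and 1.39, adjusted p = 0.0465). Genes called also moved from 155 to 92 (replicate block), 93 (only 2 groups) and 255 (without both control 3 arrays) under CCl4 between genotypes, from 129 to 216 and 58 in controls (no filter, all-array filter), from 2968 to 1757 in Lcn2-/- liver (only 2 groups), and from 13 to 7, 3, 1 and 6 for the interaction (normexp, deposited table, all-array filter, replicate block). Leaving out each array gave 2498 to 5110 genes called in WT (lowest without WT control 1), 1683 to 3200 in Lcn2-/- liver (lowest without Lcn2-/- control 2), 76 to 187 under CCl4 between genotypes (76 without WT CCl4 2 or Lcn2-/- CCl4 3), 94 to 143 in controls and 8 to 15 for the interaction. With the replicate number as a block, Myc in controls was at 1.90 (adjusted p = 0.443), and the block changed no call of a member. The 75th percentile scaling moved the median of all genes to -0.16 in WT and -0.14 in Lcn2-/- liver.

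Of 1330 alternative values for members, 83 changed sign, none of them for a called difference. In WT, Fosb was at -0.17 with 75th percentile scaling, -0.0598 with the slide block and -0.0292 without both control 3 arrays, and Ier2 at 0.80 with the slide block, 0.27 with array weights, 0.14 with the replicate block and 0.0336 without both. In Lcn2-/- liver, Junb was at -0.21 (75th percentile) and -0.18 (slide), Myc at -0.0014 (75th percentile), -0.0016 (deposited table), -0.074 (slide), -0.35 (weights) and -0.53 (without both), Fos at -0.34 and Ier2 at 0.75 (slide), Fosb at 0.29 (weights) and 0.0078 (replicate block), and Egr1 at -0.27 (weights). Between genotypes under CCl4, Junb was at 0.0036 (normexp) and Jun at -0.0246 (slide) and -0.30 (replicate block), and in controls Jun was at 0.16 (without both). In the interaction, Fosb was at 0.14 (weights), Jun at -0.0823 (replicate block) and -0.11 (without both), and Klf6 at -0.13 (without both). The cause was not tested. Leaving out each array in turn gave, in WT, Fosb -0.0879 to 0.104, Ier2 -0.461 to 0.424. In Lcn2-/- liver the ranges were Fos -0.0388 to 0.993, Fosb -0.259 to 0.31, Junb -0.575 to 0.639, Egr1 -0.0117 to 0.379, Ier2 -0.664 to 0.0314, Myc -0.529 to 0.486. Between genotypes under CCl4 they were Jun -0.296 to 0.391, Junb -0.419 to 0.287, Egr1 -0.00338 to 0.247, in controls Fos -0.0701 to 1.17, Fosb -0.0618 to 0.508, Jun -0.37 to 0.296, and in the interaction Fosb -0.269 to 0.301, Jun -0.261 to 0.426, Ier2 -0.712 to 0.172, Atf3 -0.469 to 0.938, Myc -1.004 to 0.0103, Klf6 -0.208 to 0.263. Fos and Junb gave no value under the filter that asks for all arrays.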

Other observations

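Heat shock and stress genes were measured for 13 of 14 listed. Hspa1a, the inducible chaperone Hsp70, rose by 2.09 (limma adjusted p = 0.0266) in WT and 3.49 (limma adjusted p = 0.00371) in Lcn2-/- liver, and Ddit4, an inhibitor of mTORC1 induced by stress, rose by 1.15 (limma adjusted p = 0.0428) in WT. Counts were 2 rises in WT and 1 in Lcn2-/- liver with 0 falls, where 8.01% and 6.57% of all genes rose, and list medians were 0.42 and 0.67.

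Of 14 circadian clock genes measured of 15, 0 rose, 2 fell in WT (8.8% of all genes fell) and 1 fell in Lcn2-/- liver (5.61%). Bhlhe41, a repressor of the clock, fell by 1.55 (limma adjusted p = 0.000856) in WT and 1.54 (limma adjusted p = 0.0034) in Lcn2-/- liver, with 3 of 5 and 3 of 4 CCl4 arrays well above background, and Nr1d1, REV-ERB alpha, fell by 1.22 (limma adjusted p = 0.0148) in WT.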
